A study of Homo sapiens with 6 samples.

Results

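The results below concern splicing events of 10 human genes that control programmed cell death. They are BCL2L1, MCL1, BCL2L11, BID, BAX, BCL2L12 and BCL2L13 of the BCL2 family and the caspases CASP2, CASP8 and CASP9. Members were all listed events of these genes that could be read, from 5 event classes, with a mean of at least 10 junction reads per library (reads of both forms added). Of 79 events listed and read, 72 reached this minimum, out of 66377 events tested in all. The 7 events under it were 5 of BCL2L11, 1 of BCL2L13 and 1 of CASP9. Another 131 listed events of the series, all at alternative 3′ splice sites, could not be read. Whether any of them belonged to these genes was not counted.

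RNA was sequenced from NCI-H1975 cells, an established human lung adenocarcinoma line. The control group (3 libraries) received the empty PCDNA3.1 plasmid and the SAM68 group (3 libraries) received PCDNA3.1-SAM68, in both cases 2 µg per well with lipofectamine, for 48 h. The comparison asks which splicing events change when SAM68, an RNA-binding protein encoded by KHDRBS1, is overexpressed. The methods of the study describe the libraries of each group as biological replicates. The p-values of the main tests rest only on the spread between these libraries. That spread is estimated in part from all events of a type, or from all genes. Libraries are numbered by their place in the deposited lists.

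Proteins of the BCL2 family set whether the outer mitochondrial membrane is opened: BCL2L1 and MCL1 protect it, BAX forms pores in it, and BH3-only proteins such as BCL2L11 (BIM) and BID tip the balance towards death. Initiator caspases start the proteolytic cascade that follows or precedes this step, and CASP9 acts downstream of cytochrome c while CASP8 acts downstream of death receptors. Several of these genes give isoforms of opposite effect through alternative splicing, among them the Bcl-xL and Bcl-xS forms of BCL2L1, a choice that SAM68 and hnRNP A1 are known to influence.

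The inclusion of a segment is given as percent spliced in (PSI), the share of junction reads from the form that contains the segment after the reads of each form are divided by its effective length. For a pair of mutually exclusive exons, PSI is the share of the exon nearer the 5′ end of the gene. A difference is the mean PSI of the SAM68 libraries minus that of the control libraries, in points. An event was called when its adjusted p was under 0.05 and its difference was at least 10 points in either direction.

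Skipped-exon events carried 18114969, 19645856 and 18627563 junction reads in controls and 19737729, 16951876 and 17007769 with SAM68. The 72 member events held between 12413 and 15261 reads per library. The median member event had 178 reads per library, against 111 over all events tested. Pairs of libraries within a group had a chi-square of their gene reads, over its degrees of freedom, of 3.14 to 4.54, and pairs from different groups had 4.48 to 6.39, so these ranges met at their ends.

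KHDRBS1 (ENSG00000121774.17) served as the check of the group labels. Each gene was represented by its most deeply read event, in reads per 1000000 of such reads (rpm). KHDRBS1 had 311, 329 and 316 rpm in controls and 1232, 1261 and 1277 rpm with SAM68. Every SAM68 library stood above every control library. Its mean rose from 319 rpm ± 8.93 (SD, n = 3) to 1257 rpm ± 23.1 (SD, n = 3). The log2 fold change was 1.98 with a standard error of 0.0473, and the limma adjusted p was 1.15e-21. HNRNPA1 (ENSG00000135486.17), the splicing repressor that the study names as a partner of SAM68, had a log2 fold change of -0.01 and an adjusted p of 0.932, and none of its 10 tested events was called (0 at an unadjusted p under 0.05).

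Marker genes gave a partial check of the cell line. Events were listed for 5 of 12 epithelial markers, led by KRT18 at 503.5 rpm, and their summed level ran from 734 to 997 rpm over the 6 libraries. The markers without a listed event, EPCAM, CDH1, KRT19, EGFR, NKX2-1, SFTPB and SFTPC, are not analysed here. Of 6 fibroblast markers only DCN had an event, at 0.555 rpm, and none of the 4 endothelial markers had any. Of 5 leukocyte markers only CD68 had an event, at 98.1 rpm.

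None of the 72 member events was called by the quasi-binomial test, against 17 (0.0256%) of all 66377 events. At an unadjusted p under 0.05 there were 7 member events (9.72%), beside 5613 (8.46%) of all events. These 7 are not separate observations, since 3 of BAX had the same skipping reads and so had 2 of BCL2L13. PSI did not overlap between the groups in 3 member events (4.17%), beside 4046 (6.1%) of all events. A likelihood ratio test on pooled counts, which ignores the spread between libraries, called 2 member events (2.78%), beside 1356 (2.04%) of all events. Limma on the logit of PSI called 0 member events, beside 4 (0.00603%) of all events, and the quasi-binomial test with the own dispersion of each event called 0, beside 2 (0.00301%). These member shares lay near those of all events.

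The median size of the difference was 2.02 points among the member events and 1.24 points among all events. At least 10 points separated the groups in 6 member events (8.33%), beside 4762 (7.17%) of all events. Differences were above 0 in 34 member events and below 0 in 38. A 95% interval of the difference in PSI of the summed reads could be computed for 53 member events, and for 32 of these it lay wholly within 10 points of 0. Those 32 were 12 of BCL2L13, 7 of BCL2L12, 6 of BAX, 3 of BID and 1 each of BCL2L1, MCL1, CASP2 and CASP9. None of the 5 events of BCL2L11 and 5 of CASP8 with a computed interval was bounded this tightly, and 2 events of BCL2L11 and 3 of CASP8 had no computed interval.

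**Figure D1:**
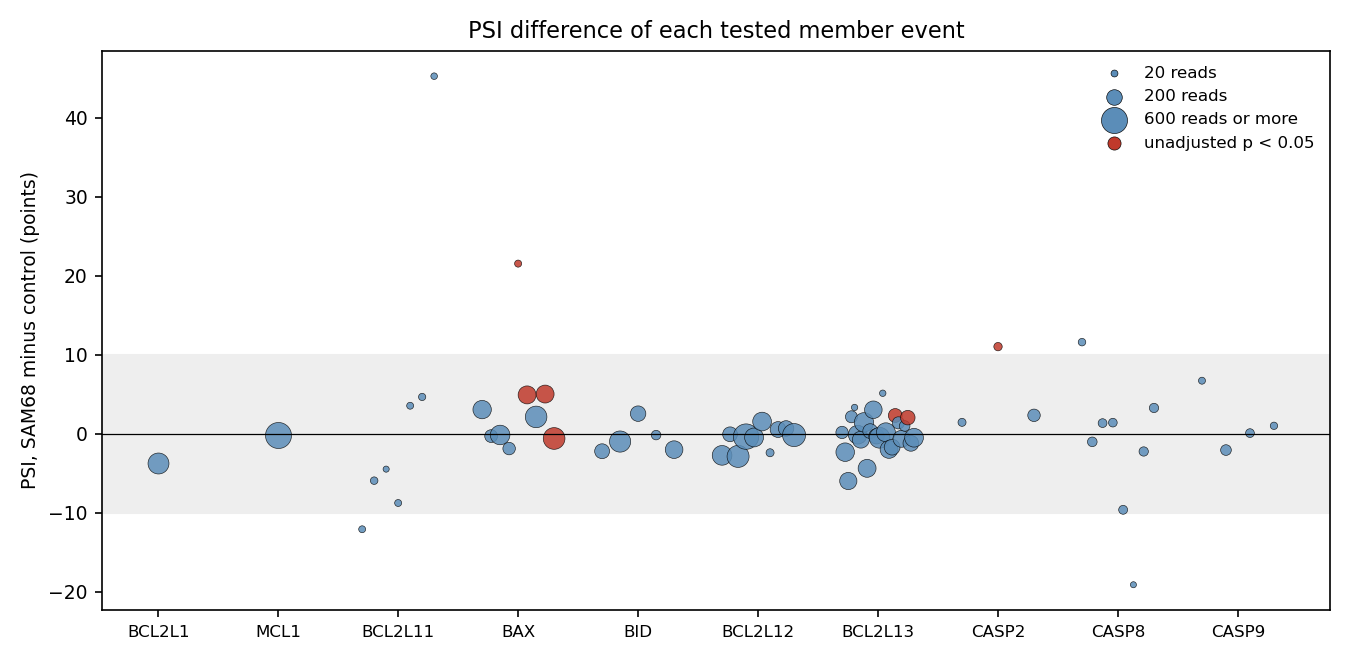
Difference in PSI (SAM68 minus control, points, vertical axis) of each of the 72 member events, grouped by gene on the horizontal axis; point area grows with the mean reads per library and the grey band spans 10 points on either side of 0. Differences outside the band came from BCL2L11, BAX, CASP2 and CASP8, all at small points, and red marks the 7 events with an unadjusted p under 0.05.

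The 6 member events outside the band were 2 of BCL2L11, 2 of CASP8, 1 of BAX and 1 of CASP2. The plot of all differences shows them as small points, since each had fewer reads than the median member event. Differences of MCL1 (-0.187 points), BCL2L12 (-2.85 to 1.56 points) and BCL2L13 (-5.97 to 5.14 points) all lay inside the band.

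BCL2L1 (ENSG00000171552.12, chr20:31664452-31723989 of hg38, minus strand) encodes the protective Bcl-xL and the death-promoting Bcl-xS. Its only event listed and read was the choice between the alternative 5′ splice sites of exon 2 that separates them. Use of the site nearer the 3′ end of the exon keeps 189 nt of coding sequence, chr20:31721655-31721843, a multiple of 3. Both sites are shown because every BCL2L1 value below rests on them, at chr20:31721645-31721674 for Bcl-xL and chr20:31721834-31721863 for Bcl-xS, minus strand of hg38. Each holds 20 exon bases and 10 intron bases, and the capitals mark the first 2 bases of the intron.
Bcl-xL 5′ splice site: tccaggagaacggcggctggGTaagaacca
Bcl-xS 5′ splice site: catatcagagctttgaacagGTagtgaatg

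Reads for Bcl-xL numbered 391, 377 and 384 in controls and 353, 321 and 283 with SAM68. Reads for Bcl-xS numbered 22, 41 and 22 in controls and 24, 37 and 32 with SAM68. The PSI of the Bcl-xL segment was therefore 89.9%, 82.1% and 89.7% in controls and 88.0%, 81.3% and 81.6% with SAM68. The groups overlapped: control library 2 lay with the lower SAM68 libraries, and SAM68 library 1 lay near the higher control libraries.

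Mean PSI was 87.2% ± 4.43 (SD, n = 3) in controls and 83.6% ± 3.82 (SD, n = 3) with SAM68. The difference of -3.63 points was smaller than the spread within either group. Its adjusted p was 0.680, and the two-sided exact permutation test over the 6 libraries gave 0.2, where 0.1 is the smallest value that 3 against 3 libraries allow. The 95% interval ran from -9.39 to 2.56 points, so a change of 10 points in either direction lay outside it. Over the alternatives the difference ranged from -6.19 to -2.10 points and the adjusted p from 0.270 to 0.921.

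**Figure D2:**
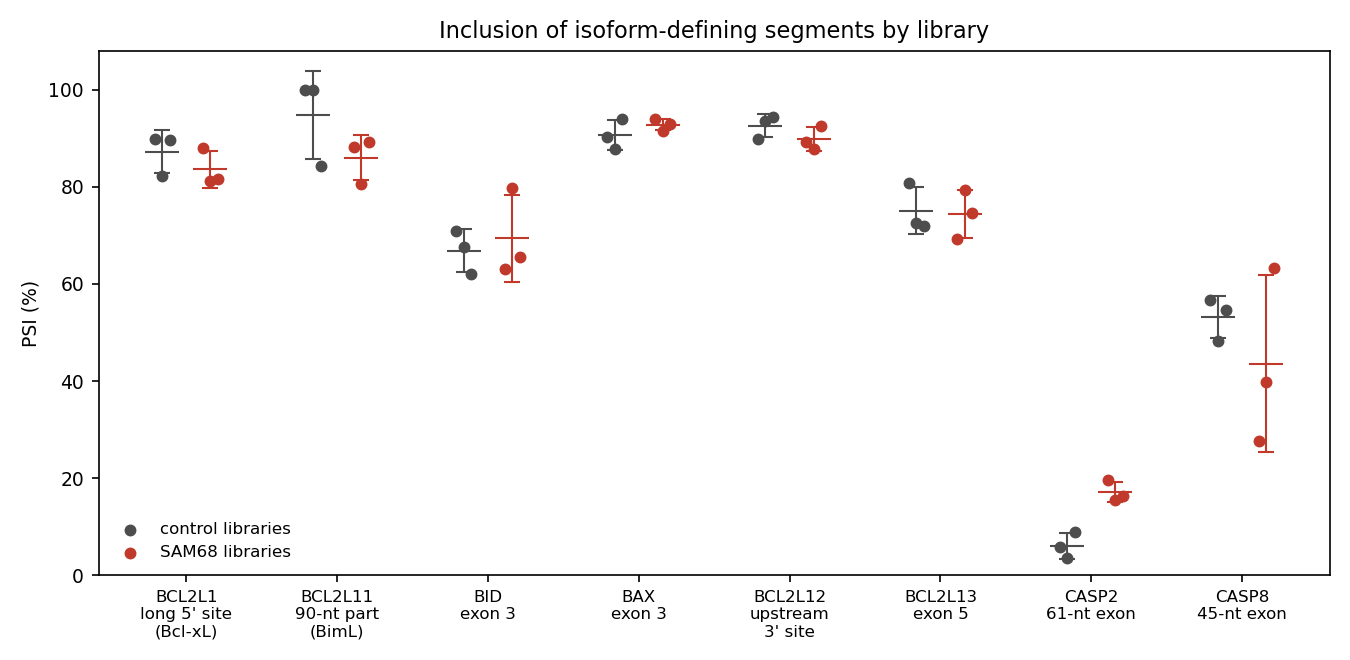
PSI (percent, vertical axis) of 8 isoform-defining segments in each control (grey) and SAM68 (red) library, with points for libraries, horizontal lines for group means and bars for 1 SD (n = 3). The groups stand apart for the CASP2 exon and overlap for the other 7 segments, and the SAM68 libraries of CASP8 are spread from 27.7% to 63.3%.

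MCL1 (ENSG00000143384.12, chr1:150560895-150579738, minus strand) encodes a short-lived protective protein, and a transcript without its exon 2 gives a short form that promotes death. The 248-nt exon at chr1:150578244-150578491 was read 1562, 1647 and 1566 times in controls and 1422, 1162 and 1351 times with SAM68. Reads that skipped it numbered 7, 0 and 3 in controls and 4, 4 and 4 with SAM68. PSI was thus 99.1% to 100% in every library.

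Exon 2 of MCL1 differed by -0.187 points, with a 95% interval of -0.765 to 0.387 points and an adjusted p of 0.669. This was the most deeply read member event, and its interval was under 2 points wide. Without control library 2, which had no skipping read, the difference was 0.0244 points.

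BCL2L11 (ENSG00000153094.22, chr2:111119378-111168444, plus strand) encodes the BH3-only protein BIM, whose EL, L and S forms differ by which parts of exon 2 are kept. It was the most thinly read member, with 10.8 to 28.8 reads per library in its 7 tested events. The segment of 180 nt (chr2:111123870-111124049) that separates BimEL from BimL was listed as a retained intron. Its PSI was 30%, 25% and 28% in controls and 13.0%, 11.1% and 45.5% with SAM68. SAM68 library 3 stood above the controls and the other 2 SAM68 libraries below them.

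For the segment of 90 nt (chr2:111124050-111124139) that separates BimL from BimS, PSI was 100%, 100% and 84.2% in controls and 88.1%, 80.6% and 89.3% with SAM68. Skipping reads behind these values numbered 0, 0 and 3 against 2, 2 and 1. Both segments as a unit (270 nt, BimEL against BimS) had a PSI of 100%, 100% and 82.4% in controls and 83.3%, 73.3% and 89.5% with SAM68. The groups overlapped in all 3 comparisons: control library 3 lay among the SAM68 libraries for the 90-nt and 270-nt segments, and all controls lay between the SAM68 libraries for the retained segment.

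Differences in these 3 events were -4.46, -8.75 and -12.1 points, with adjusted p-values of 0.844, 0.615 and 0.709. Without division by effective length they were -8.11, -5.52 and -6.78 points, so the third was then under 10 points in size. The 95% intervals ran from -30.6 to 16.7, from -23.7 to 10.7 and from -30.9 to 13.1 points. A change of 10 points in either direction lay inside all 3 intervals.

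Exon 3 of BCL2L11 (104 nt, chr2:111150044-111150147) was listed with 2 sets of neighbouring exons. It was skipped by 3 reads of control library 2 in the more deeply read listing and by 1 read of control library 1 in the other, and by no read of any other library in either. Against the alternative exon of 125 nt (chr2:111153780-111153904), exon 3 had a PSI of 80.7%, 83.7% and 95.02% in controls and 86.3%, 80.0% and 75.3% with SAM68. Those groups overlapped, at a difference of -5.92 points and an adjusted p of 0.878. The difference was -1.65 points without control library 3 and -8.82 points without SAM68 library 1.

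The largest member difference belonged to the same 125-nt exon when it was compared with direct joining of exon 3 to exon 4. Reads of the direct junction numbered 8, 17 and 12 in controls and 11, 0 and 0 with SAM68. PSI was 24.2%, 31.1% and 27.7% in controls and 18.9%, 100% and 100% with SAM68. SAM68 library 1 lay below every control library, and the other 2 SAM68 libraries lay at the upper end of the scale with 3 and 13 reads in all.

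The mean difference was 45.3 points, and the PSI of the summed reads differed by 20.8 points with a 95% interval of -10.2 to 51.7 points. The test gave an unadjusted p of 0.165 and an adjusted p of 0.566. Over the leave-one-out fits the difference ranged from 31.7 to 72.3 points. The spread within the SAM68 group, 46.8 points (SD, n = 3), was as large as the difference.

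BID (ENSG00000015475.18, chr22:17734138-17774770, minus strand) encodes the BH3-only protein that CASP8 cleaves, and its 5 tested events concerned exons 2 and 3. Exon 3 (211 nt, chr22:17743803-17744013) was listed with more than 1 set of neighbouring exons. In the most deeply read listing it was skipped by 0, 1 and 0 reads in controls and by 4, 3 and 0 with SAM68. SAM68 library 3 shared the value of control libraries 1 and 3, and the other 2 SAM68 libraries lay under every control.

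That listing had a difference of -0.973 points, a 95% interval of -2.19 to 0.201 points and an adjusted p of 0.566. In the listing of exon 3 with intermediate inclusion, PSI was 70.9%, 67.5% and 62.1% in controls and 63.0%, 79.7% and 65.4% with SAM68. SAM68 library 2 stood above the rest, and without it the difference of 2.56 points became -2.59 points.

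Exon 2 of BID (70 nt, chr22:17750105-17750174) had a PSI of 32.0%, 25.0% and 27.1% in controls and 20.4%, 36.9% and 26.3% with SAM68. SAM68 library 2 was the highest and SAM68 library 1 the lowest of the 6, so the groups overlapped. Measured against exon 3, exon 2 had a PSI of 16.2%, 13.8% and 18.5% in controls and 13.1%, 13.0% and 15.8% with SAM68. The differences were -0.157 points with an interval of -13.1 to 8.93 points, and -2.20 points with an interval of -8.97 to 4.57 points.

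BAX (ENSG00000087088.19, chr19:48954815-48961798, plus strand) encodes the pore-forming effector. It had 9 tested events, of which 4 had an unadjusted p under 0.05. Exon 3 (147 nt, chr19:48955687-48955833) was included in 90.2%, 87.8% and 94.0% in controls and in 93.9%, 91.6% and 93.0% with SAM68. The SAM68 values lay inside the range of the controls. Its difference was 2.15 points, its 95% interval -1.45 to 6.42 points and its adjusted p 0.566. It was 0.727 points without control library 2 and 3.82 points without control library 3.

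Exon 2 of BAX (52 nt, chr19:48955548-48955599), whose loss shifts the reading frame, had a PSI of 94.4%, 99.0% and 99.0% in controls and 95.6%, 100% and 91.3% with SAM68. The lowest and the highest value both came from SAM68 libraries. The difference was -1.86 points with an interval of -5.96 to 2.76 points.

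Of the 4 BAX events with an unadjusted p under 0.05, 3 shared the same skipping junction, from exon 1 to exon 4. This junction had 0, 0 and 21 reads in controls and 0, 0 and 0 with SAM68, so control library 3 held every read of it. The including forms were read 22, 32 and 16 times in controls and 15, 16 and 13 times with SAM68 in the event with the fewest reads.

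Differences of these 3 events were 21.5, 4.93 and 5.04 points with unadjusted p-values of 0.0190, 0.0103 and 0.0106. Their adjusted p-values were 0.517, 0.463 and 0.465. Without control library 3 all 3 differences were 0. A form that went from 0 reads to at least 10 reads between libraries of the same group was found in 5 member events (6.94%), beside 2881 (4.34%) of all events. Besides these 3 of BAX they were the 125-nt exon of BCL2L11 and a listing of BID exon 2 with 13, 2 and 0 skipping reads in controls, which was chosen for mention after its values were seen.

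**Figure D3:**
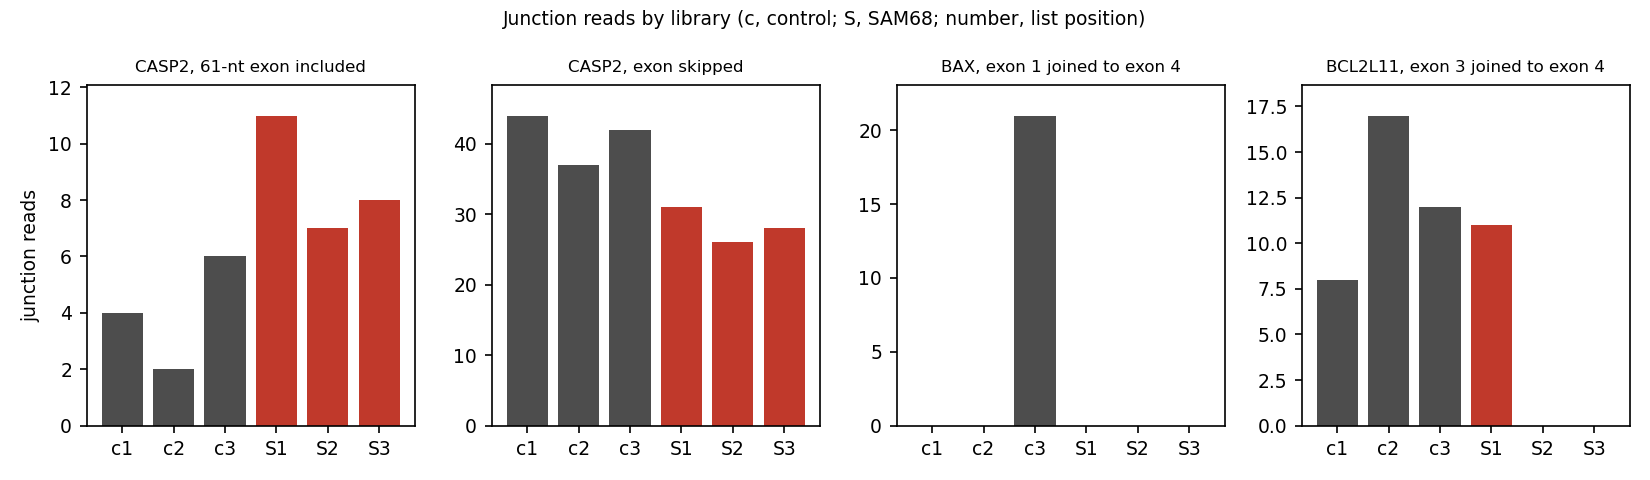
Junction reads (vertical axes, starting at 0) in the 3 control (c1 to c3, grey) and 3 SAM68 (S1 to S3, red) libraries for 4 junctions or junction sums. The exon 1 to exon 4 junction of BAX has reads in control library 3 alone (21), and the exon 3 to exon 4 junction of BCL2L11 has none in SAM68 libraries 2 and 3.

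The other BAX event of low p was an exon of 98 nt at chr19:48960239-48960336 that is rarely included. It was read 2, 10 and 3 times in controls and 1, 0 and 0 times with SAM68, beside 303 to 475 skipping reads per library. PSI was 0.297%, 1.19% and 0.389% in controls and 0.127%, 0% and 0% with SAM68. Every control library lay above every SAM68 library, and control library 2 held most of the reads. The difference of -0.583 points had a 95% interval of -1.07 to -0.143 points, below 0, an unadjusted p of 0.00925, the lowest among the members, and an adjusted p of 0.452. Without control library 2 the difference was -0.3004 points.

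BCL2L12 (ENSG00000126453.9, chr19:49665142-49673916, plus strand) encodes a BCL2-like protein, and its 10 tested events had means of 35.5 to 571 reads per library. Exon 3 has tandem 3′ splice sites 3 nt apart, which add or remove 3 bases of coding sequence. The sites are shown, at chr19:49666999-49667041 on the plus strand of hg38, because the closeness of the sites is the whole of this event; the capitals mark the last 2 bases before each site.
BCL2L12 tandem 3′ splice sites: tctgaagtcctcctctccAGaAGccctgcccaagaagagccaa

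The upstream site was used in 89.8%, 93.5% and 94.3% in controls and in 89.1%, 87.7% and 92.6% with SAM68. Control library 1 lay among the SAM68 libraries. The difference was -2.72 points, with an interval of -6.58 to 0.879 points and an adjusted p of 0.677. Reads per library numbered 246 to 388.

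Exon 3 itself (143 nt, chr19:49667019-49667161) was included in 83.9%, 85.9% and 80.8% in controls and in 84.4%, 79.5% and 85.7% with SAM68. The groups overlapped through most of their range, at a difference of -0.348 points and an interval of -4.91 to 3.86 points. The pair of exons 4 and 6 had a mean PSI of 40.2% ± 3.66 (SD, n = 3) in controls and 37.3% ± 1.65 (SD, n = 3) with SAM68. This difference of -2.85 points was -0.749 points without control library 2. The distal 5′ splice site at chr19:49669116-49669164 was used by 0, 3 and 0 reads in controls and 0, 0 and 2 with SAM68.

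BCL2L13 (ENSG00000099968.17, chr22:17628855-17730855, plus strand), a mitochondrial member of the family, had 24 tested events, the most of any member gene, which combine exons 2 to 6 in different pairs and so share reads. Exon 5 (70 nt, chr22:17696141-17696210) had a PSI of 80.7%, 72.6% and 71.9% in controls and 69.3%, 79.3% and 74.7% with SAM68. The ranges of the groups largely coincided, at a difference of -0.622 points. Exons 2, 4 and 6 differed by -0.497, -1.97 and -0.491 points, with intervals that all lay within 6 points of 0. The exon 4 value was -0.635 points without SAM68 library 2 and -3.73 points without SAM68 library 3.

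For exon 2 of BCL2L13 against exon 5 as a mutually exclusive pair, PSI was 58.5%, 68.1% and 63.7% in controls and 58.9%, 61.1% and 52.3% with SAM68. Control library 1 lay among the SAM68 libraries. The difference was -5.97 points, the interval -13.7 to 2.19 points and the adjusted p 0.727. Leaving out 1 library at a time gave -8.44 to -3.39 points.

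Listings of exons 4 and 6 whose skipping form had 0, 4 and 2 reads in controls and none with SAM68 gave unadjusted p-values of 0.0368 and 0.0270. Their differences were 2.33 and 2.05 points and their adjusted p-values 0.566 and 0.544. Control library 1 shared the value of 100% with the SAM68 libraries in both. The skipping counts of both listings were the same in every library, so their p-values are not separate observations. The pair of exons 4 and 5, chosen for mention after its values were seen, had a PSI of 62.1%, 65.7% and 62.7% in controls and 59.3%, 59.0% and 59.2% with SAM68. The groups did not overlap there, at a difference of -4.36 points and an adjusted p of 0.766.

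**Figure D4:**
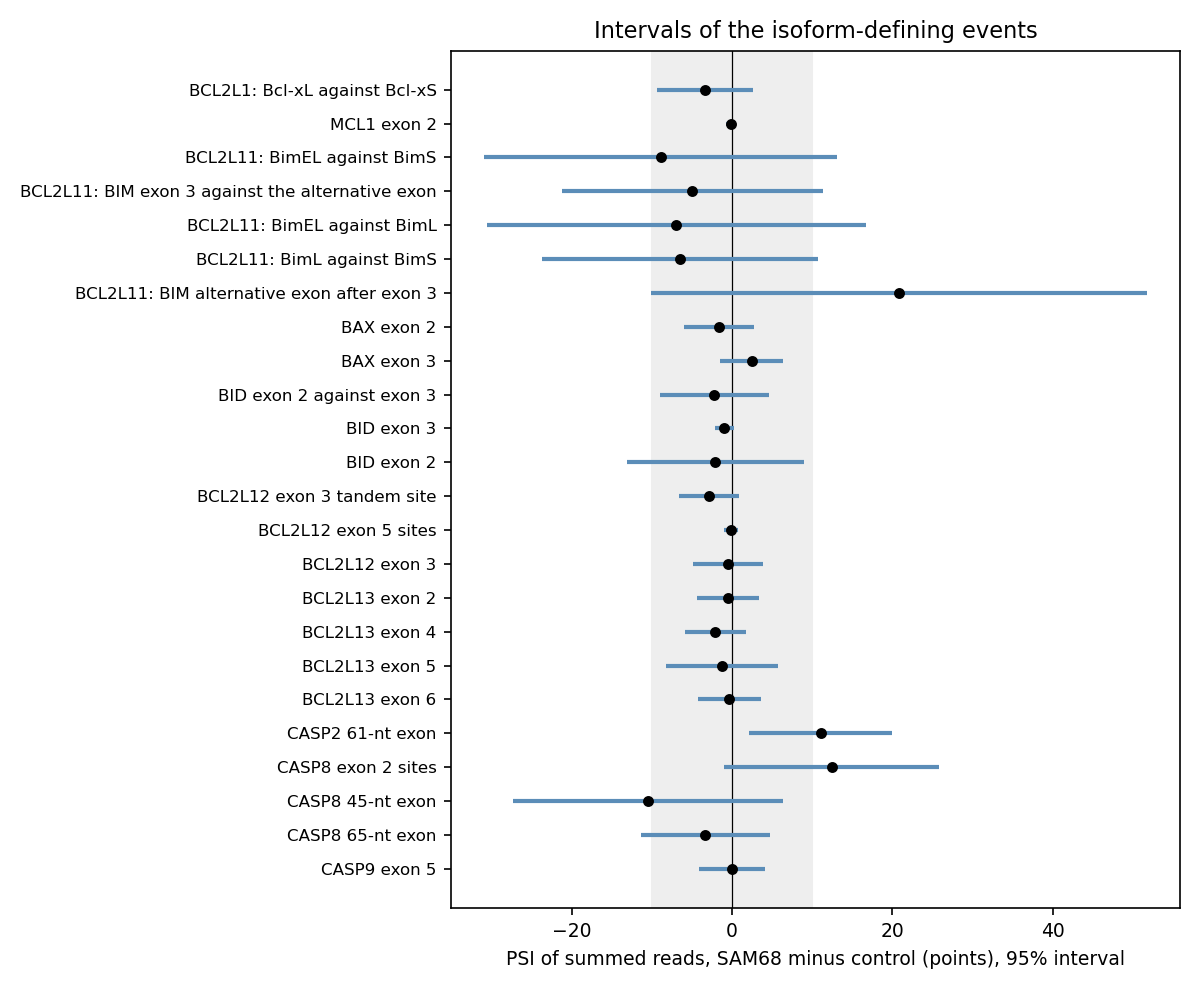
Difference in PSI of the summed reads (points, SAM68 minus control, horizontal axis) with its 95% interval for the isoform-defining events whose interval could be computed, ordered by gene; the grey band spans 10 points on either side of 0. The interval of the CASP2 exon lies above 0 and those of all other events drawn include 0 (the 98-nt exon of BAX, whose interval lies below 0, is not drawn), and that of the BCL2L11 alternative exon after exon 3 is the widest drawn.

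CASP2 (ENSG00000106144.19, chr7:143288215-143307696, plus strand) encodes an initiator caspase with a long form that promotes death and a short form that carries an additional exon. That exon has 61 nt, at chr7:143300380-143300440, which is not a multiple of 3. With it the reading frame of the canonical transcript, read through 967 coding bases before the exon, meets a TGA stop that begins 2 nt after the exon. The open frame then has 343 codons in place of 452. In the annotation 1 transcript holds this exon, and no annotated coding sequence overlaps it. Whether this frame is translated was not tested. The exon is shown with 20 intron bases on each side because it carried the largest member difference with groups apart; the capitals mark the exon, at chr7:143300360-143300460 on the plus strand of hg38.
CASP2 exon: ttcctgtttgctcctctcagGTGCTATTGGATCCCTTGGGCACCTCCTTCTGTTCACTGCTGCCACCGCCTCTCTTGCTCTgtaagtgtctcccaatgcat

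Reads that included the CASP2 exon numbered 4, 2 and 6 in controls and 11, 7 and 8 with SAM68. Reads that skipped it numbered 44, 37 and 42 in controls and 31, 26 and 28 with SAM68. PSI was 5.86%, 3.57% and 8.90% in controls and 19.5%, 15.6% and 16.4% with SAM68. Every SAM68 library lay above every control library for PSI and for inclusion reads, and below every control library for skipping reads.

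Mean PSI of the CASP2 exon was 6.11% ± 2.68 (SD, n = 3) in controls and 17.1% ± 2.11 (SD, n = 3) with SAM68. The difference of 11.04 points was larger than the spread within either group, and its 95% interval ran from 2.11 to 19.99 points. The unadjusted p of the quasi-binomial test was 0.0135 and the adjusted p over all skipped exons was 0.490, so the exon was not called. The exact permutation test gave 0.1, the smallest value the design allows.

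Depth limited this event to 33 to 48 reads per library. The likelihood ratio test on pooled counts gave an adjusted p of 0.0380, and over all alternatives the adjusted p ranged from 0.0380 to 0.896 and the difference from 9.77 to 14.6 points. Without any 1 library the difference was 9.77 to 12.4 points. The CASP2 exon of 110 nt at chr7:143304674-143304783, exon 10, was skipped by 0, 4 and 1 reads in controls and by none with SAM68, at a difference of 2.35 points and an adjusted p of 0.566. Without control library 2, which held 4 of the skipping reads, this difference was 0.697 points.

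CASP8 (ENSG00000064012.21, chr2:201233443-201361836, plus strand) encodes the initiator caspase of death receptors, and its 8 tested events had 10 to 61.7 reads per library on average. The exon of 45 nt at chr2:201272898-201272942, a multiple of 3, was the CASP8 cassette nearest to equal use of both forms. It is shown with 20 intron bases on each side, at chr2:201272878-201272962 on the plus strand of hg38, with the exon in capitals, for comparison with the CASP2 exon.
CASP8 exon: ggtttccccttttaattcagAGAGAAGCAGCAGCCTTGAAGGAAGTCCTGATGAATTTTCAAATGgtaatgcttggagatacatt

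The 45-nt exon had a PSI of 56.7%, 48.3% and 54.7% in controls and 27.7%, 39.8% and 63.3% with SAM68. SAM68 libraries 1 and 2 lay below every control library and SAM68 library 3 above every control library. The difference was -9.61 points, the interval -27.3 to 6.30 points and the adjusted p 0.566. Leaving out 1 library at a time moved the difference between -19.5 points (without SAM68 library 3) and -1.65 points (without SAM68 library 1).

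At the alternative 3′ splice sites of CASP8 exon 2, which differ by 26 nt (chr2:201266461-201266486), the longer exon was used in 73.7%, 95.6% and 84.0% in controls and in 92.2%, 95.9% and 100% with SAM68. Control library 2 lay among the SAM68 libraries. The difference was 11.6 points, with an interval of -1.02 to 25.8 points, an unadjusted p of 0.0787 and an adjusted p of 0.668. Without control library 1 the difference was 6.23 points, and without control library 2 it was 17.2 points. Another listing of the 45-nt exon, at 10 reads per library, had the other CASP8 difference over 10 points, -19.1 points, and was chosen for mention after its values were seen. The exon of 65 nt at chr2:201274889-201274953 differed by -2.23 points with an interval of -11.4 to 4.73 points.

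CASP9 (ENSG00000132906.17, chr1:15490832-15526534, minus strand) encodes the caspase of the apoptosome, and its known short form lacks exons 3 to 6 together. No listed event joined exon 2 to exon 7, so that form has no value here. Exons 3, 5 and 7 were included nearly always, with 1 skipping read or fewer for exon 5 in any library and differences of 1.02, 0.0957 and -2.05 points. At the 3′ splice sites of exon 4, the upstream site (chr1:15507076-15507133) was used by 4 reads of SAM68 library 2, a PSI of 20.2%, and by 0 reads in the other 5 libraries. A count of 0 in the control group allowed a share of up to 3.95% of junction reads, not divided by effective length as PSI is.

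The level of each member gene was measured by the same junction reads, in rpm. None of the 10 genes was called by limma (adjusted p under 0.05 and at least 1 in log2 fold change), beside 5 (0.0493%) of 10147 genes. None passed the adjusted p without the fold limit, beside 42 (0.414%) of all genes. At an unadjusted p under 0.05 there were 2 member genes (20%), MCL1 and CASP2, beside 1224 (12.1%) of all genes. Levels of the groups did not overlap in 4 member genes (40%), beside 1708 (16.8%) of all genes; with 10 genes chosen with results known, nothing is read from this share. Junction reads follow both the RNA level and the share of the form that carries the junction, and levels are not compared between genes.

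MCL1 had 271, 262 and 263 rpm in controls and 225, 214 and 249 rpm with SAM68. Every SAM68 library lay below every control library. The log2 fold change was -0.21 with a standard error of 0.0645 and an adjusted p of 0.143. Over the alternatives the adjusted p ran from 0.0357, without SAM68 library 3, to 0.433, and the log2 fold change from -0.27 to -0.16.

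CASP2 had 26.4, 20.2 and 21.9 rpm in controls and 18.8, 19.8 and 14.7 rpm with SAM68. The groups did not overlap, although control library 2 and SAM68 library 2 lay close together. The log2 fold change was -0.36 and the adjusted p 0.410, and leaving out 1 library at a time gave -0.44 to -0.23. BCL2L1 (71.3, 66.6 and 67.98 against 59.5, 65.8 and 57.8 rpm) and CASP8 (8.80, 10.04 and 7.70 against 12.8, 12.3 and 11.4 rpm) also had groups that did not overlap. Their log2 fold changes were -0.17 and 0.44 and their adjusted p-values 0.516 and 0.429. The CASP8 value was 0.16 when the reads of all its skipped-exon events were summed.

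The remaining 6 genes had overlapping groups. Their log2 fold changes were -0.61 for BCL2L11, -0.30 for CASP9, -0.14 for BAX, -0.10 for BCL2L13, -0.07 for BCL2L12 and 0.13 for BID. Adjusted p-values of these genes ran from 0.483 for BCL2L11 to 0.802 for BCL2L12. The direction for BCL2L12 changed to 0.02 when the reads of all skipped-exon events were summed, and that for BCL2L13 to 0.01 without SAM68 library 3. Leaving out 1 library at a time gave -0.85 to -0.39 for BCL2L11, -0.20 to -0.02 for BAX and 0.04 to 0.24 for BID. For BCL2L12 these fits gave -0.11 to -0.02.

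**Figure D5:**
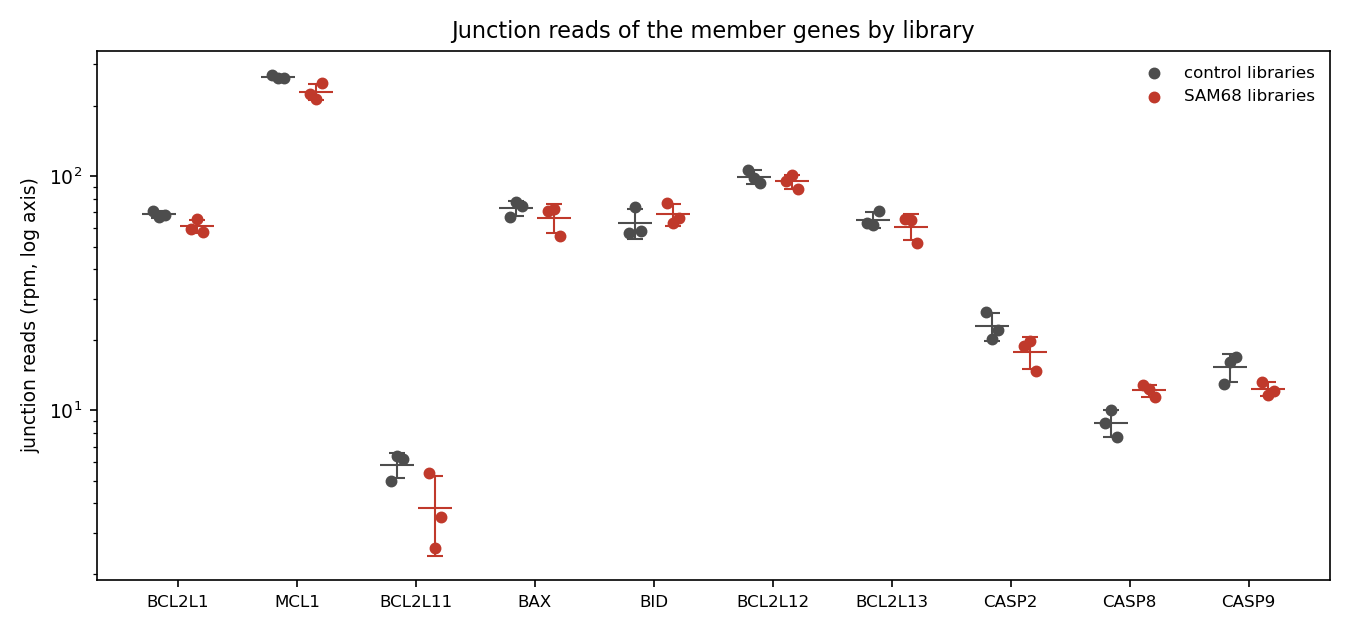
Junction reads in rpm (log axis) of the 10 member genes in each control (grey) and SAM68 (red) library, with points for libraries, horizontal lines for means and bars for 1 SD (n = 3). The groups are apart for BCL2L1, MCL1, CASP2 and CASP8 and overlap for the other 6 genes.

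Other genes of the pathway were counted from 4 lists, to be read beside the 0.0256% of all events that were called and the 8.46% that had an unadjusted p under 0.05. Among other BCL2 family genes, 23 events of 9 genes were tested, 0 were called and 1 (4.35%) had an unadjusted p under 0.05. Among other caspases and their regulators, 140 events of 20 genes were tested, 0 were called and 14 (10%) had an unadjusted p under 0.05. Among death receptors and their adaptors, 38 events of 8 genes were tested, 0 were called and 4 (10.5%) had an unadjusted p under 0.05.

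Among regulators of Bcl-x splicing, 169 events of 19 genes were tested, 1 was called and 26 (15.4%) had an unadjusted p under 0.05. The overexpressed gene KHDRBS1 is on this list and gave 5 of the 26, from 18 tested events. Some of the other listings shared skipping reads, such as those of PTBP1 and of FBXO7. The called event was a pair of mutually exclusive exons of KHDRBS1 itself, with a PSI of 70.4%, 67.1% and 67.2% in controls and 84.2%, 83.3% and 83.5% with SAM68. All SAM68 libraries lay above all control libraries, in a gene that cells of the SAM68 group also carried on the plasmid. The difference was 15.4 points with an adjusted p of 3.78e-09. At the gene level KHDRBS1 was the only gene called in these 4 lists, and it was called upward.

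SAM68 binds RNA rich in A and U, and the letters TAAA are the DNA form of its core motif. They were counted on the strand that has the sequence of the RNA, in the 100 nt before and the 100 nt after each distinct exon of the skipped-exon events. Among the 31 member exons, 8 (25.81%) had TAAA before the exon and 8 (25.81%) after it. Among all 38685 exons the shares were 40.87% and 42.06%. The CASP2 exon of 61 nt had 0 matches on either side.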

How the data were processed

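Splicing was measured by RNA sequencing in 3 control and 3 SAM68 libraries of NCI-H1975 cells. According to the submitters' processing notes, the authors used CASAVA 1.4, fastp 0.20.0 and HISAT2 2.1.0 (GRCh38) and counted events with rMATS, version not stated. The deposited values are unnormalised junction read counts of both forms (inclusion and skipping), inclusion levels from 0 to 1 and effective lengths of each form in nucleotides. The deposited columns PValue, FDR and IncLevelDifference hold the authors' comparison and were not used. The order of the lists, control before SAM68, was taken from the heading of a figure of the study. Of 78336 listed events, 78061 were read as printed. Some lists of the alternative 3′ splice site table had their digits regrouped, of which 144 were recovered and 131 left out, and 19 lines were blank.

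PSI was recomputed from counts and effective lengths. A quasi-binomial model with group as its term was fitted to each event with a mean of at least 10 reads. Its Pearson dispersion was moderated within event type with limma 3.58.1 (squeezeVar, R 4.3.3; prior degrees of freedom 21.0 for skipped exons, 20.7 for exclusive pairs, 18.5 and 14.0 for 3′ and 5′ splice sites, 24.8 for introns) and kept at 1 or more. An F test followed, with Benjamini-Hochberg adjustment within each of 5 types. Genes were tested with limma (eBayes with trend) on log2(rpm + 0.5). All tests were two-sided and were tested on simulated data, with an outcome that is not given here. Positions and annotation are from GENCODE on hg38. As a check of coordinates, AG stood before 99.9% of the 38685 skipped exons and GT or GC after 99.93%. The 95% intervals scale counting error by the dispersion, and the limit of 3 reads used where a form had 0 reads covers counting error alone.

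The named events were, for each member gene, those that separate its known isoforms, those called or with an unadjusted p under 0.05, the most deeply read with a mean PSI of 5% to 95%, and the largest difference at 50 or more reads; KHDRBS1 and HNRNPA1 were added. Members and lists were chosen with earlier results of these data known. Alternatives were other dispersions and tests, PSI without length or from summed counts, joint adjustment, other minimums and limits, summed events, other gene scalings and pseudocounts, and leaving out each library.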

Additional observations from a re-analysis of the deposited data

How the results depend on the processing

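The count of called member events was 0 under every alternative except the likelihood ratio test on pooled counts, which gave 2, the CASP2 exon of 61 nt (adjusted p 0.0380, range over its alternatives 0.0380 to 0.896) and BAX exon 2 joined to exon 4 (adjusted p 0.00202, range 0.00202 to 1.00). That test leaves out the spread between libraries. The count of called member genes was 0 under every alternative, and also with no fold limit on all 6 libraries. Without SAM68 library 3, MCL1 had a limma adjusted p of 0.0357, with a fold change under the limit. The Bcl-xL difference kept its direction, with -6.19 to -2.31 points over the leave-one-out fits, and the KHDRBS1 log2 fold change was 1.95 to 2.01. Of 578 values of named events and genes under alternatives, 536 kept their direction and their side of the threshold. Another 9 came to 0 as written, among them the 3 BAX differences without control library 3. They include the BCL2L13 log2 fold change with summed skipped-exon events, which is a rounded value. A further 2 crossed the threshold and 31 changed direction, in 16 of 50 results. The cause was not tested. Leaving out 1 library at a time gave -0.420 to 0.0244 points for MCL1 exon 2, -15.6 to 1.58 for BimEL against BimL (which fell under 10 reads and has no value without control library 3), -4.05 to 0.307 for BAX exon 2, -2.59 to 5.73 for BID exon 3 and -4.67 to 3.56 for BID exon 2. For BCL2L12 it gave -0.394 to 0.339 points at the 5′ splice sites and -1.70 to 1.51 for exon 3. For BCL2L13 it gave -2.55 to 4.83 points for exons 3 and 6, -2.33 to 1.49 for exon 2, -3.06 to 2.19 for exon 5 and -2.43 to 0.608 for exon 6. For CASP8 and CASP9 it gave -5.56 to 3.35 points for the pair of 45 and 65 nt, -5.61 to 0.885 for the 65-nt exon and -0.830 to 0.925 for CASP9 exon 5. Events with no change of direction ranged over -17.95 to -7.71 points for BimEL against BimS, -14.00 to -6.05 for BimL against BimS, 0 to 7.01 for BIM exon 3, -3.36 to -1.04 for BID exons 2 and 3, -1.53 to -0.669 for the deepest listing of BID exon 3, -4.10 to -1.68 for the BCL2L12 tandem sites, 1.32 to 3.49 and 1.23 to 3.08 for the BCL2L13 listings of low p, 0 to 4.92 for CASP8 exon 7, and 0 to 1.53, -3.08 to 0 and 0 to 10.1 for CASP9 exon 3, exon 7 and the exon 4 sites. The log2 fold change of BCL2L13 was -0.16 to 0.01 in these fits, and that of BCL2L12 was 0.02 with the reads of all skipped-exon events summed. No paired analysis was possible because the lists carry no replicate numbers. Events of BCL2L11 had 10.8 to 28.8 and those of CASP8 10 to 61.7 reads per library, and none of those with a computed interval had it inside 10 points; what part depth had in this was not tested.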
